A study of Bos taurus with 4 samples.

Results

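The sequences described here are small RNAs of bovine oocytes that begin with T, are 24 to 32 nt long and carry only names of protein coding transcripts predicted by GENSCAN, a program that finds genes from genome sequence alone. They have the first base and the length that are typical of piRNAs, but their names are those of predicted messenger RNAs and not of piRNA clusters. They were found by stripping bracketed notes from the deposited names and keeping rows in which every name begins with the predicted coding prefix. This gave 42276 of the 2468643 distinct sequences of the series, out of 170356 distinct sequences of any length or first base that were named only for predicted coding transcripts. No member carried a bracketed note. The deposited files do not pair the transcript identifiers with gene symbols, and 0 of them were found in the RefSeq gene table used here, so the transcripts are given by identifier only.

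piRNAs are small RNAs bound by PIWI proteins of the germ line, where they direct the silencing of transposons and other transcripts. Most begin with U, which is written T in the files. Many arise from long transcripts of genomic clusters, and some arise from messenger RNAs. When one piRNA guides the cut of a complementary transcript, the new 5′ end pairs with the guide over its first 10 bases, so a partner of a piRNA that begins with U carries A at position 10. TDRKH, which carries a tudor domain, is a partner of PIWI proteins and takes part in the trimming of piRNA 3′ ends.

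The samples were bovine oocytes at the germinal vesicle stage, arrested before meiotic maturation, and both groups came from this one stage with no other treatment in the labels. The 2 input libraries had no antibody, and the 2 IP libraries held RNA recovered with an anti-Tdrkh antibody (Proteintech). Nothing in the labels tells whether the libraries of a group are from different oocyte pools. The p-values therefore reflect only how far these libraries spread, which may be technical. The design compares RNA recovered with TDRKH with the RNA it was drawn from. In the absence of a control-antibody library, TDRKH-bound RNA and RNA carried along in the IP cannot be told apart. Small RNA files hold no marker messenger RNA level, so the cell type rests on the labels.

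The leading sequences of the 8 transcripts with the most member reads are shown first, since most of the values below belong to them. Capitals mark T at position 1 and, where present, A at position 10, with positions counted from 1 at the 5′ end.
GENSCAN00000044498, 27 nt: TttggcaccAgggatggatttcatgga
GENSCAN00000036891, 26 nt: TcggaggacActcaagacattggagt
GENSCAN00000046397, 26 nt: TtctttggtAtaattgttctgcagtt
GENSCAN00000000272, 26 nt: Tacaacaagcaggtgctaggagaaca
GENSCAN00000029206, 27 nt: TatgaatgtAagaaatgtgggaaagcc
GENSCAN00000008226, 26 nt: Ttgcaaagagtcagacacgactgagc
GENSCAN00000012792, 24 nt: Ttgcaaagagttggacatgactta
GENSCAN00000032961, 26 nt: Tagttactctcggtcagtctgaactt

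The members shown next, from the 2 most abundant 5′ ends, differ only in where they stop within each end. Not all members of these ends are such forms. GENSCAN00000036891 had 21 members on its 5′ end, and some differ in a base, such as a form with A for T at position 20. They are shown because the forms of different length moved differently between input and IP. Capitals mark the bases after the first 24.
GENSCAN00000036891, 24 nt: tcggaggacactcaagacattgga
GENSCAN00000036891, 25 nt: tcggaggacactcaagacattggaG
GENSCAN00000036891, 26 nt: tcggaggacactcaagacattggaGT
GENSCAN00000036891, 27 nt: tcggaggacactcaagacattggaGTA
GENSCAN00000044498, 24 nt: tttggcaccagggatggatttcat
GENSCAN00000044498, 25 nt: tttggcaccagggatggatttcatG
GENSCAN00000044498, 26 nt: tttggcaccagggatggatttcatGG
GENSCAN00000044498, 27 nt: tttggcaccagggatggatttcatGGA
GENSCAN00000044498, 28 nt: tttggcaccagggatggatttcatGGAA

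Other sequences with the same 5′ ends were named for piRNA clusters and are therefore not members. The most abundant of each end are shown to let the 3′ ends be compared, and the last of them carries a bracketed note in its deposited name. Capitals run from position 26, the first base that departs from the members.
piRNA cluster on chromosome 6, 27 nt: tcggaggacactcaagacattggagAA
piRNA cluster on chromosome 6, 26 nt: tcggaggacactcaagacattggagA
piRNA cluster on chromosome 17, 27 nt: tttggcaccagggatggatttcatgAA
piRNA cluster on chromosome 17, 28 nt: tttggcaccagggatggatttcatgAAA

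The libraries held between 1079364 listed reads in input 1 and 11138905 in IP 1, with 1354003 in input 2 and 11060320 in IP 2, so 1 read was worth 0.926 and 0.739 reads per 1000000 listed reads (RPM) in the inputs and 0.0898 and 0.0904 RPM in the IPs. Members took 8848 reads of input 1, 11045 of input 2, 70150 of IP 1 and 66646 of IP 2. These reads fell on 4105, 5503, 18521 and 18575 distinct members. Most members were rare: 91.2% of them were listed in 1 library only, and 131 members listed in all 4 libraries held 57.5% of all member reads. When the reads of each IP were thinned at random to the depth of input 1, the IPs kept 2450 and 2481 distinct members, against 4105 in input 1. Intervals and floors given below cover counting error only, since reads copied by PCR are not independent molecules.

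Members made up a smaller share of the listed reads in the IPs, while predicted coding reads that begin with another base fell far more. Member reads came to 8197 RPM in input 1, 8157 in input 2, 6298 in IP 1 and 6026 in IP 2, so both IPs lay below both inputs. The mean was 8177 ± 28.4 RPM (SD, n = 2) in the inputs and 6162 ± 192 RPM (SD, n = 2) in the IPs. In edgeR's quasi-likelihood test over RNA classes split by first base and length, this was a log2 change of -0.41 ± 0.13 (SE), with a Benjamini-Hochberg adjusted p of 0.00425. Of the 33 features so tested, 72.7% were lower in the IPs and 15.2% higher, so a fall was the common outcome. With TMM factors 14 were lower and 15 higher, and with DESeq2 15 and 15. Predicted coding reads that begin with another base fell by 2.94 on the log2 scale (adjusted p = 1.13e-33, edgeR), from 27346 to 3565 RPM. Predicted coding reads that begin with T but have other lengths fell by 0.30 (adjusted p = 0.0351, edgeR). Cluster reads that begin with T and are 24 to 32 nt long rose by 0.07 (adjusted p = 0.0239, edgeR).

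The direction of the members' change rested on the scale. With TMM factors the log2 change was 1.05 and with DESeq2 size factors 1.11, because these set the median feature, at -1.49 on the scale of listed reads, to -0.02 and 0.03. Relative to that median the members stood 1.08 higher on the scale of listed reads, 1.06 higher with TMM and 1.07 higher with DESeq2. That distance was 0.583 without the 10 most abundant members and 0.114 with single-name sequences only. Without the 10 most abundant members the log2 change was -0.90 (adjusted p = 2.74e-08, edgeR). The fall did not pass the threshold without input 1 (log2 change -0.40) or without input 2 (-0.41). The smallest adjusted p over the alternatives tried, 1.83e-16 with DESeq2, belonged to a rise. Among the alternatives with a fall the smallest was the 2.74e-08 (edgeR) without the 10 most abundant members. A share of listed reads depends on all other reads, and in bulk samples fewer cells of a type and less RNA per cell cannot be told apart.

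The share of predicted coding reads that had the first base and length of piRNAs was higher in both IPs. It was 19.7% in input 1 (Wilson 95% interval 19.4% to 20.1%), 18.3% in input 2 (18.03% to 18.6%), 40.5% in IP 1 (40.2% to 40.7%) and 37.5% in IP 2 (37.3% to 37.7%). The means were 19.0% ± 0.997 (SD, n = 2) and 39.0% ± 2.10 (SD, n = 2), and the groups did not overlap. The exact permutation test, two-sided, gave p = 0.333, which is the smallest p that 2 libraries against 2 allow. This share does not depend on the scaling of the libraries. The share of reads that begin with T but have other lengths was 16.9% and 17.9% in the inputs and 37.4% and 39.5% in the IPs, so it was higher in the IPs to a similar degree. Without the 10 most abundant members the share with the first base and length of piRNAs was 14.02% and 13.4% in the inputs and 24.2% and 22.7% in the IPs.

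The first base differed in the same direction. Among predicted coding reads of 24 to 32 nt, T was the first base of 39.1% and 37.7% in the inputs and of 75.4% and 74.2% in the IPs. The mean share of A was 23.3% in the inputs and 10.01% in the IPs, that of C 19.2% and 7.19% and that of G 18.996% and 7.99%, with no test run on single bases. At the edges of the length range, reads of 23 nt that begin with T, just outside it, came to 667 and 734 RPM in the inputs and 524 and 569 RPM in the IPs. Those of 24 nt, just inside, came to 838 and 779 RPM and to 642 and 675 RPM. At the long end the fall was steeper: reads of 32 nt, just inside, came to 312 and 394 RPM in the inputs and 20.02 and 17.7 RPM in the IPs. Those of 33 nt, just outside, came to 295 and 410 RPM and to 13.9 and 13.8 RPM.

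Long members were therefore rare in the IPs. Members of 29 to 32 nt held 18.9% and 21.0% of member reads in the inputs and 2.50% and 2.34% in the IPs (exact permutation p = 0.333, the smallest possible). The 26 nt form was the most common length in both groups, with 23.1% of member reads in each input and 34.5% and 34.3% in the IPs. Among cluster reads that begin with T the share of 29 to 32 nt was small in every library, at 4.94% and 5.34% in the inputs and 5.72% and 5.51% in the IPs. In the IPs the length profile of the members was thus narrower than that of the cluster reads, and in the inputs it was broader. This range of lengths was chosen after the profiles were seen.

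A small fraction of the members had the same 5′ end as a piRNA from a cluster. The first 18 bases of 2511 members, on 733 different 5′ ends, were equal to those of a listed sequence with cluster names only. These cluster-sharing members were 5.94% of the distinct members and held 41.5% and 39.4% of member reads in the inputs and 69.2% and 67.6% in the IPs. They rose from 3404 and 3216 RPM to 4359 and 4073 RPM, 1.27 times as high in the IPs by the ratio of means. The other 39765 members fell from 4794 and 4941 RPM to 1939 and 1953 RPM, 2.50 times as high in the inputs. Their fall lay in rare 5′ ends: ends with 10 to 49 reads over the 4 libraries had 132 and 158 RPM in the inputs and 238 and 231 RPM in the IPs, and those with at least 50 reads had 125 and 114 RPM and 171 and 180 RPM. Since the deeper IPs give most of the reads, these ranges of summed reads favour ends that are high in the IPs. The split was made after the values were seen, so it is given without a test, and "rose" and "fell" here say only that both IPs lay on one side of both inputs. The log2 ratios, 0.35 and -1.32, differ by the same amount on any scale of the libraries. When only cluster sequences listed in the inputs were used to find shared ends, an alternative added after seeing the data, the ratios were 0.33 and -1.19.

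Abundant 5′ ends were cluster-sharing far more often than rare ones. Of the 24774 member 5′ ends with 1 read over the 4 libraries 0.747% were cluster-sharing, of the 885 with 5 to 9 reads 12.8%, and of the 126 with at least 50 reads 75.4%. Long reads were rare among cluster-sharing members in both groups, and rarer than among the cluster reads. Reads of 29 to 32 nt made up 0.572% and 0.850% of their reads in the inputs and 0.480% and 0.415% in the IPs. Without the 2 leading 5′ ends the shares were 2.61% and 3.68% in the inputs and 1.76% and 1.44% in the IPs. Of the reads of the other members, 31.9% and 34.1% had these lengths in the inputs and 7.03% and 6.37% in the IPs. The long reads of the inputs thus lay almost wholly among members with no cluster 5′ end.

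A at position 10 was the base of most member reads, and this came largely from the 2 leading 5′ ends, both of which carry it. It was found in 53.7% of member reads of input 1 (Wilson 95% interval 52.7% to 54.8%), 51.1% of input 2 (50.2% to 52.1%), 69.6% of IP 1 (69.2% to 69.9%) and 68.2% of IP 2 (67.8% to 68.5%). The IPs exceeded the inputs by 16.4 percentage points, with means of 68.9% ± 0.980 and 52.4% ± 1.83 (SD, n = 2) and an exact permutation p of 0.333, the smallest possible. Without these 2 ends, left out after seeing the data, the shares were 30.2% and 29.1% in the inputs and 35.9% and 35.6% in the IPs. With each distinct member counted once they were 28.9% and 28.7% in the inputs and 30.5% and 30.8% in the IPs. The groups did not overlap under these counts, but the difference shrank to 1.86 points for distinct members. Among cluster-sharing members the share was lower in the IPs, at 90.5% and 87.3% of reads in the inputs and 86.4% and 85.4% in the IPs. Without the 2 leading ends it was 49.3% and 40.1% for these members in the inputs and 43.5% and 42.1% in the IPs, which overlapped. Among the other members it was 27.6% in each input and 31.8% and 32.2% in the IPs. First-T cluster reads of the same lengths carried A at position 10 in 41.0% and 40.9% of input reads and in 42.2% and 41.6% of IP reads.

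Across distinct members, position 10 stood out only where the 5′ end was shared with a cluster. Of the 2511 cluster-sharing members 42.2% had A at position 10, the highest share of positions 2 to 20, where the others ran from 13.0% to 35.4%. Of the 39765 other members 28.9% had A there, which ranked 5 among those positions, with the others between 16.8% and 41.1%. The highest was position 3, at 41.1%, against 18.5% in cluster-sharing members. In 1115423 distinct first-T cluster sequences A at position 10 was also the highest, at 35.3%, with the other positions between 16.5% and 30.1%. Cluster-sharing members have the first 18 bases of a cluster sequence by definition, so their base at position 10 is that of the cluster sequence. Their likeness to the cluster sequences at this position was thus built into the split. Members that share a sequence overlap in most of their bases, so these shares are descriptions over sequences and not over independent sites.

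Reads complementary to a member over 18 bases were found for few members. Reads that pair with a member over only 10 bases were not counted, so the count cannot tell how common such partners are. An 18-base stretch of 2431 members (5.75%) was the reverse complement of a stretch of another listed sequence. These members held 4.56% and 4.79% of member reads in the inputs and 9.48% and 9.81% in the IPs. The complementary sequence had cluster names for 1733 members and predicted coding names for 1447. The offset of the 5′ ends of such pairs was not analysed here.

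Most members had 1 name. Of the 42276 members 37305 (88.2%) were named for a single transcript, and these held 90.5%, 90.0%, 90.0% and 89.6% of member reads in input 1, input 2, IP 1 and IP 2. The share of reads with 1 name thus lay within 1 percentage point in all libraries. A further 3484 members had 2 to 4 names, 875 had 5 to 9 and 612 had at least 10, with 76 as the largest number. Members with at least 10 names came to 111 and 111 RPM in the inputs and 119 and 106 RPM in the IPs, and the groups overlapped. As a share of member reads they held 1.36% in each input and 1.90% and 1.76% in the IPs, and members with 5 to 9 names held 1.93% and 1.73% in the inputs and 2.13% and 2.29% in the IPs. Neither pair of shares overlapped. Cluster-sharing members made up 4.56% of the members with 1 name and 28.9% of those with at least 10.

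The leading sequences of the 5 shared name sets with the most reads are shown because each carries the names of more than 1 predicted transcript. Capitals mark GAATGTGG in the set of 5 names, and T at position 1 with A at position 10, where present, in the others.
3 names: TttggcaccAgggagcagttttgtgga
5 names: tatgaatgtaaaGAATGTGGgaatgcc
2 names: Tgcacacaaggtttgtttgagccctc
19 names: Ttcaggtcggttcccccaaaaggctc
16 names: Tttcggctagactctggcttcaggtc
The set of 2 names, GENSCAN00000013244 and GENSCAN00000036918, held 67 members with 21.3 and 56.1 RPM in the inputs and 47.6 and 48.0 RPM in the IPs. The inputs lay on either side of the IPs. The set of 3 names, GENSCAN00000003898, GENSCAN00000011440 and GENSCAN00000031878, held 25.9 and 31.02 RPM in the inputs and 47.9 and 46.7 RPM in the IPs, which did not overlap. The set of 5 names held 18.5 and 9.60 RPM in the inputs and 20.6 and 20.5 RPM in the IPs, and that of 19 names 16.7 and 14.8 RPM against 18.3 and 16.5 RPM. Only in the first of these last pairs did both IPs lie above both inputs. The set of 16 names came to 11.1 and 13.3 RPM in the inputs and 18.5 and 17.4 RPM in the IPs, which did not overlap.

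The stretch GAATGTGG, chosen after the 5-name sequence was seen, was counted in all members. GAATGTGG was found in 0.239% of members with 1 name, 0.947% of those with 2 to 4 names, 3.54% of those with 5 to 9 names and 0.817% of those with at least 10. It was found in 0.0979% of first-T cluster sequences. For the other strand, its reverse complement CCACATTC was found in 4 members, all with 1 name, and in 0.0207% of the cluster sequences. A match describes the letters only.

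Member reads were spread over many transcripts and concentrated in 2. Members named 11182 of the 21322 predicted coding transcripts of the files (52.4%), and 3765 of these carried a single member sequence. The 2 leading transcripts held 35.5% and 32.5% of member reads in the inputs and 54.9% and 53.0% in the IPs. The 100 leading ones held 47.4% and 44.4% in the inputs and 69.5% and 68.1% in the IPs. The leading transcripts thus held a larger part of the reads in the IPs. The 1000 leading ones held 80.5% and 67.6% in the inputs and 80.8% and 79.6% in the IPs, where input 1 lay between the IPs. In the IPs alone 7080 transcripts (63.3%) had member reads and in the inputs alone 868, at a depth that was far greater in the IPs. At equal depth the IPs reached 2013 and 2144 transcripts and input 1 reached 2075, while input 2, with more listed reads than input 1, reached 3010.

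GENSCAN00000044498 carried the most member reads in the inputs and did not pass the threshold between input and IP. It held 1536 and 1544 RPM in the inputs and 1611 and 1440 RPM in the IPs, with a log2 change of -0.01 ± 0.07 (SE) and an adjusted p of 0.883 (edgeR). With DESeq2 size factors it was 0.58 (adjusted p = 1.63e-10), with TMM 0.23 (adjusted p = 0.0279) and without IP 2 0.07, and the adjusted p ran from 1.63e-10 to 0.990 over the alternatives tried. Its members came from 25 different 5′ ends, all with 1 name. The cluster-named sequences with its leading 5′ end were listed equally under 2 overlapping cluster names, chromosome 17 from 62734026 to 62887012 and from 62734087 to 62862016, in a genome build not given in the sources used here.

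GENSCAN00000036891 held more member reads in the IPs. All of its 21 members shared 1 5′ end, with 1370 and 1108 RPM in the inputs and 1844 and 1752 RPM in the IPs, which did not overlap. The log2 change was 0.54 ± 0.10 (SE), with an adjusted p of 0.00232 (edgeR), and 0.39 with an adjusted p of 0.0559 without input 2. Cluster-named sequences with this 5′ end were listed, for 99.8% of their reads, under a cluster on chromosome 6 from 110174004 to 110336024.

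The next 6 transcripts held far fewer reads, and all 6 rose on the scale of listed reads. GENSCAN00000000272 went from 30.8 and 32.5 RPM to 67.8 and 61.8 RPM, a log2 change of 1.03 ± 0.14 (adjusted p = 0.000565). GENSCAN00000012792 went from 15.8 and 25.8 RPM to 45.9 and 51.3 RPM (log2 change 1.19 ± 0.21, adjusted p = 0.00177). GENSCAN00000032961 went from 13.9 and 24.4 RPM to 42.4 and 43.3 RPM (1.12 ± 0.21, adjusted p = 0.00231). In these 3 both IPs lay above both inputs. GENSCAN00000008226 went from 25.01 and 21.4 RPM to 44.4 and 48.9 RPM (1.02 ± 0.17, adjusted p = 0.00121). GENSCAN00000046397 went from 52.2 and 34.9 RPM to 65.7 and 58.7 RPM (0.55 ± 0.18, adjusted p = 0.0272). GENSCAN00000029206, which had 271 members on 106 5′ ends, went from 29.6 and 35.1 RPM to 43.9 and 51.3 RPM (0.54 ± 0.17, adjusted p = 0.0261). All of these p-values are from edgeR, and each of these transcripts except GENSCAN00000032961 missed the threshold when either input was left out, with adjusted p from 0.0552 to 0.370. GENSCAN00000029206 also missed it without IP 2 (adjusted p = 0.0608, edgeR) and GENSCAN00000046397 without IP 1 (adjusted p = 0.0637, edgeR). With cluster reads as library size these 2 had adjusted p of 0.0808 and 0.0754, and GENSCAN00000029206 had 0.0876 with single names and 0.0748 with thinned IPs (edgeR). With no filter on low counts none of the 6, nor GENSCAN00000036891, passed (adjusted p from 0.0645 to 0.412, edgeR). The leading sequence of GENSCAN00000008226 shared its 5′ end with sequences of 225 cluster names on 30 chromosomes and that of GENSCAN00000012792 with 122 names on 27, while that of GENSCAN00000000272 shared it with 1 cluster on chromosome 6 from 110178897 to 110333441.

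Of the transcripts with member reads, 361 of 11182 passed the filter on low counts. That filter also keeps transcripts that are high in 1 group only, for which a difference is built into the selection. How many of the calls below are of this kind was not counted. In the fit over all names split into member reads and other reads, 41 of the 361 were higher in the IPs (11.4%) and 122 lower (33.8%), where 21.1% of all 6387 features were higher and 47.6% lower. The median log2 change was -0.26 for the members and -0.69 for all features. With TMM factors 1957 of all 6387 features were higher and 2952 lower, and with DESeq2 1900 and 2465. Of the 361 transcripts 65 were higher and 111 lower with TMM factors, and 45 and 68 with DESeq2. Without input 1 there were 6 higher and 64 lower, without input 2 5 and 65. With IPs thinned to the depth of input 1, an alternative added after seeing the data, 38 transcripts passed the filter, of which 10 were higher and 12 lower. Of all 3307 features that then passed it, 1017 were higher and 1114 lower.

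Transcripts whose member reads were cluster-sharing differed in direction from the rest. Of the 111 tested transcripts with at least 50% of their member RPM on cluster-sharing 5′ ends, 24 were higher and 4 lower, with a median log2 change of 0.60. Of the 210 with none, 13 were higher and 110 lower, with a median of -1.72. The 40 in between had 4 higher and 8 lower. Over all 6387 features 21.1% were higher and 47.6% lower. Rises among the 111 were thus about as common as over all features, and falls were rarer. The filter keeps a transcript that is high in one group only, and this grouping was made after the values were seen, so no test of the difference is given.

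The other predicted coding reads of the same transcripts could be compared for 260 of the 361. Their median log2 change was -1.86, against -0.64 for the member reads of these transcripts, and member reads had the higher log2 change in 193 of the 260. Where at least 50% of the member RPM was cluster-sharing, the medians were 0.68 for member reads and 0.74 for other reads over 65 transcripts. Where none was, they were -2.26 and -3.47 over 164, and member reads had the higher value in 139. The gap between the 2 kinds of read was therefore seen mainly in transcripts with no shared 5′ end, and it does not depend on the scaling of the libraries.

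The transcripts with the most extreme changes had no cluster-sharing member. Each passed the filter through 1 group only and so had to differ, and they are given as a description with no test. Their leading sequences are shown because they stand at either end of the range, with capitals as for the first set.
GENSCAN00000005743, higher in IP: Tcttgtcgctcacttggttcctggcg
GENSCAN00000005731, higher in IP: TctactctgAaagtcactcatgtt
GENSCAN00000040154, lower in IP: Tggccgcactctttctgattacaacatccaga
GENSCAN00000032189, lower in IP: Tgccactagtcaccctctcctaaacc
GENSCAN00000005743 had 0 reads in both inputs and 4.76 and 5.15 RPM in the IPs, at least 1.98-fold higher than the floor of 3 counts per library (mean 2.50 RPM). GENSCAN00000005731 had 0 reads in both inputs and 3.77 and 3.44 RPM in the IPs, at least 1.44-fold higher. GENSCAN00000032189 had 6.49 and 5.91 RPM in the inputs and 0 reads in both IPs, at least 22.9-fold lower (floor 0.270 RPM). The inputs were shallow, so the 2 bounds for a rise are low. GENSCAN00000040154 had 17.9 and 13.8 RPM in the inputs and 0.0748 and 0.0452 RPM in the IPs, below that floor, and was at least 58.7-fold lower. Its other reads had a mean of 139.8 RPM in the inputs and 0.811 RPM in the IPs.

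Of single members, 21 reached 10 RPM in 2 libraries and were tested with all 11786 sequences that did. All 21 were cluster-sharing, 15 had A at position 10 and 9 belonged to the 2 leading 5′ ends. Of these, 10 were higher in the IPs and 1 lower, where 41.9% of all sequences were higher and 19.9% lower, so the share that rose was near the background. Of the 21, 17 reached 10 RPM in a library of each group, with 8 higher and 0 lower, 3 only in the IPs, with 2 higher, and 1 only in the inputs, the lower one. The latter 4 were selected by the group in which they are high. Both IPs lay above both inputs for 18 of the 21, a count that cannot be read as a trait of the members. It was not made for all 11786 sequences, whose median log2 change of 0.70 was above the 0.55 of the members. TMM and DESeq2 factors move the median of all sequences from 0.70 to 0.02 and 0.05. With TMM factors 667 of all 11786 sequences were higher and 2727 lower, and with DESeq2 198 and 2615. Of the 21 members 1 was higher and 3 lower with TMM factors, and 0 and 3 with DESeq2 (4 at an unadjusted p under the 0.05 threshold). Without IP 1 or without IP 2 4 were higher.

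The 24 and 25 nt forms of both leading 5′ ends made up a larger share of their end's members in the IPs. On the scale of listed reads the median log2 change of all 11786 tested sequences was 0.70. Only the 24 and 25 nt forms of the GENSCAN00000036891 end exceeded it among the forms below. For the end named for GENSCAN00000036891 the 24 nt form went from 20.4 and 26.6 RPM to 63.3 and 78.2 RPM, a log2 change of 1.58 ± 0.32 (adjusted p = 0.000111, edgeR). The 25 nt form went from 103 and 85.7 RPM to 195 and 200.4 RPM (1.07 ± 0.25, adjusted p = 0.000658, edgeR). The 26 nt form, the most abundant member, had 880 and 732 RPM in the inputs and 1129 and 1048 RPM in the IPs, a log2 change of 0.43 ± 0.21 that did not pass the threshold (adjusted p = 0.0727, edgeR). All 3 forms had both IPs above both inputs. The 27 nt form went from 343 and 258 RPM to 451 and 420 RPM (0.54 ± 0.23, adjusted p = 0.0417, edgeR), a call that was lost without input 2, without IP 1 and without IP 2, with adjusted p from 0.145 to 0.256. The 24 nt form had a log2 change of 0.90 with TMM factors (adjusted p = 0.0220) and 0.94 with DESeq2 (adjusted p = 0.0507), the 25 nt form 0.38 (adjusted p = 0.245) and 0.41 (adjusted p = 0.290). Of these calls only that of the 24 nt form with TMM factors was kept. As a share of this end's members, the 24 nt form made up 1.49% and 2.40% in the inputs and 3.43% and 4.46% in the IPs, which does not depend on scaling.

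For the end named for GENSCAN00000044498 the 24 nt form went from 51.0 and 53.9 RPM to 77.5 and 85.5 RPM, a log2 change of 0.63 ± 0.28 (adjusted p = 0.0467, edgeR). Its 25 nt form had 96.4 and 81.2 RPM in the inputs and 121 and 124 RPM in the IPs, and its 26 nt form 108 and 95.3 RPM and 158 and 123 RPM, with a log2 change of 0.47 for each (adjusted p = 0.112 and 0.109, edgeR). Neither of these passed the threshold, although their groups did not overlap. The 27 nt form had 747 and 642 RPM in the inputs and 661 and 530 RPM in the IPs (-0.22 ± 0.22, adjusted p = 0.367, edgeR), and the 28 nt form 391 and 553 RPM and 447 and 431 RPM (-0.11 ± 0.23, adjusted p = 0.683, edgeR). Both long forms overlapped between groups, and both were lower in the IPs with TMM factors (-0.91 and -0.78) and with DESeq2 (-0.89 and -0.75). The 24 and 25 nt forms of this end were chosen after their values were seen and were not refitted under the alternatives. The 24 nt form made up 3.65% and 3.78% of this end's members in the inputs and 5.29% and 6.60% in the IPs.

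Most cluster-named reads of the same 5′ ends ended in A. For the end of GENSCAN00000036891, 27.9% and 29.5% of all reads with these first 18 bases were cluster-named in the inputs and 31.0% and 32.6% in the IPs. Those that also ended in A were 20.9% and 24.97% in the inputs and 29.1% and 30.6% in the IPs. The 27 nt form that ends in AA had 212 and 201 RPM in the inputs and 384 and 383 RPM in the IPs. For the end of GENSCAN00000044498, cluster-named reads made up 30.9% and 23.96% in the inputs and 19.0% and 20.6% in the IPs, a difference in the other direction. Reads of one 5′ end were thus divided between a transcript name and a cluster name, and a count by name holds only part of them. The last base alone does not separate the names, since the 27 nt members of both ends shown above and the 28 nt one also end in A. The cluster-named forms shown above depart from the members at position 26. Where the other cluster-named forms depart was not tabulated. With all names counted, the first end came to 1947 and 1627 RPM in the inputs and 2780 and 2748 RPM in the IPs, and the second to 2147 and 2047 RPM and 2071 and 1958 RPM.

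The one tested member called lower was a variant of the 27 nt form of GENSCAN00000044498 with 1 base changed. The variants at position 9 are shown because they carry the same name without a note, with the changed base in capitals.
C9A: tttggcacAagggatggatttcatgga
C9T: tttggcacTagggatggatttcatgga
C9G: tttggcacGagggatggatttcatgga
The C9A form had 14.8 and 10.3 RPM in the inputs and 1.98 and 1.81 RPM in the IPs, a log2 change of -2.70 ± 0.40 (SE). It reached the minimum of 10 RPM in the inputs only, so a fall was built into its selection and no p is given. Relative to the unchanged form it made up 1.99% and 1.61% in the inputs and 0.299% and 0.341% in the IPs. The C9T form, too rare to be tested, had 12.0 and 5.17 RPM in the inputs and 8.53 and 6.24 RPM in the IPs, which overlapped. The C9G form had 5, 0, 2 and 3 reads in input 1, input 2, IP 1 and IP 2. Whether such variants are copies in the genome or sequencing errors was not tested. On the GENSCAN00000036891 end a listed variant has N, an uncalled base, at position 20.

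Other members repeated the first 14 bases of the GENSCAN00000044498 end and then went on differently. There were 128 such members on 26 other transcripts, and 3 of them are shown, with the shared bases in capitals.
GENSCAN00000003898, GENSCAN00000011440 and GENSCAN00000031878: TTTGGCACCAGGGAgcagttttgtgga
GENSCAN00000038331: TTTGGCACCAGGGAccgtttttgt
GENSCAN00000041757: TTTGGCACCAGGGActgattttgtg
Together these 128 members came to 67.6 and 60.6 RPM in the inputs and 104 and 103 RPM in the IPs, which did not overlap. The GENSCAN00000038331 form had 2.78 and 2.95 RPM in the inputs, on 3 and 4 reads, and 11.7 and 11.9 RPM in the IPs, a log2 change of 2.03 ± 0.55 (SE). A shifted form of the leading end, which lacks its first 2 bases, had 4.63 and 2.22 RPM in the inputs and 10.7 and 10.04 RPM in the IPs (1.64 ± 0.54). Both reached the minimum of 10 RPM in the IPs only, so a rise was built into their selection and no p is given. The leading form of GENSCAN00000012792 rose from 6.49 and 14.03 RPM to 25.6 and 29.02 RPM (1.37 ± 0.40, adjusted p = 0.00490, edgeR), a call that was lost without input 1 or either IP (adjusted p from 0.0521 to 0.116). With TMM factors its adjusted p was 0.202 and with DESeq2 0.400. The first 14 bases of the other leading end, TCGGAGGACACTCA, were found in no member outside that end.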

How the data were processed

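Small RNAs of bovine germinal vesicle oocytes were measured in 2 input and 2 TDRKH IP libraries. The deposited files list whole-number read counts per distinct sequence with all names each sequence was given, per the file headers; the files are output of unitas, a small RNA annotation tool. Per the labels, TRIZOL served for extraction, the NEXTflex V3 kit for libraries and a NextSeq for sequencing. Trimming, mapping settings and build: not given in the sources used here. Library totals are sums over the listed sequences.

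Sequences with several names were divided equally among them. The library size was the total of listed reads. The quasi-likelihood test of edgeR (version 4.0.16 under R 4.3.3) compared IP with input over all classes, all names split by kind (filterByExpr) and all sequences with at least 10 RPM in 2 libraries, with Benjamini-Hochberg adjustment and a threshold of 0.05. Standard errors were derived from the change and the F statistic. Shares were compared by the exact permutation test. The tests were tested on simulated data. Python 3.11.15, numpy 2.4.6, pandas 2.3.3 and scipy 1.17.1 did the rest.

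The rule for naming members took the 6 of highest mean RPM per group, and up to 4 per direction with the largest change among those past the threshold without overlap. Named transcripts were the 8 with the most reads and the 2 extremes in each direction. Other sequences shown were chosen after seeing the data. Members and lists were chosen with earlier results of these data known. Alternatives were TMM factors, DESeq2 1.42.0, cluster reads as library size, a replicate block, other filters and length ranges, single names, distinct sequences, leaving out abundant members and leaving out each library.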

Additional observations from a re-analysis of the deposited data

How the results depend on the processing

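The fall of the member class reversed with DESeq2 size factors (log2 change 1.11) and TMM factors (1.05), and ran from -0.44 to -0.38 with 1 library left out. It was -0.90 without the 10 most abundant members and -0.54 with cluster reads as library size. Higher and lower transcripts numbered 24 and 46 at 26 to 30 nt, 10 and 12 with thinned IPs, 0 and 32 with no filter (551 of either direction at an unadjusted p under 0.05, edgeR), 65 higher with TMM, 68 lower with DESeq2, and 5 to 29 higher and 64 to 103 lower with 1 library left out. Higher members numbered 0 with DESeq2, 1 with TMM, 6 with cluster reads as library size, 4 with thinned IPs and 4 to 9 with 1 library left out. Lower members numbered 3 with DESeq2, 3 with TMM and 2 at 5 RPM. At 26 to 30 nt 162 transcripts were tested, and of all 6429 features 1334 were higher and 3090 lower. With no filter 10172 transcripts were tested, and of all 42771 features 91 were higher and 1355 lower. The excess of A at position 10 in the IPs was 1.86 points for distinct sequences, 6.44 without the 10 most abundant members and 6.10 without the 2 leading 5′ ends. The excess of the piRNA-like share was 14.5 points at 26 to 30 nt and 9.73 without those 10 members. No member had a bracketed note, so leaving these out gave no other value.

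With the replicate block the class change was -0.41, transcripts numbered 43 higher and 116 lower, and members 8 higher and 1 lower. Same-numbered libraries barely deviated together (correlation 0.028 over names and 0.085 over sequences). With 1 difference per group and shallow inputs this cannot tell whether they were paired, and the labels do not say. Among named sequences and transcripts, 10 values reversed. The 26 nt form of GENSCAN00000036891 was -0.24 (DESeq2) and -0.26 (TMM), its 27 nt form -0.14 and -0.16, and the 26 nt form of GENSCAN00000044498 -0.20 and -0.22. The 28 nt form ran from -0.33 to 0.17 with 1 library left out, reversing without input 2. The transcript GENSCAN00000044498 was 0.58 (DESeq2) and 0.23 (TMM), and ran from -0.097 to 0.065 with 1 library left out, reversing without IP 2. The cause of these changes was not tested. The inputs were far shallower than the IPs, which limits what can be seen of rare members.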
